A study of Mus musculus with 2 samples.

Results

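The genes described here are 36 genes of the actin cytoskeleton and of smooth muscle contraction, many of them classical targets of serum response factor (SRF), in mouse embryonic fibroblasts (MEFs) without and with Fut8. Fut8 encodes the enzyme that attaches fucose to the innermost sugar of N-linked glycans. The genes were taken from a list of names, and every probe set annotated with exactly 1 of those names was used, which gave 92 of the 45101 probe sets on the arrays; 3 of the 92 were array controls for beta-actin. The remaining 89 probe sets covered all 36 genes, out of 18193 genes named on the arrays.

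There was 1 array of Fut8-/- MEFs, homozygous for the disrupted gene, and 1 array of Fut8+/+ MEFs, with both copies intact. Both cultures were labelled as mouse cell lines and were grown in the same serum-containing medium with antibiotics; the labels do not say how each line was derived, at which passage it was used or how many dishes gave the RNA. The submitters' design note gives n as 3 for each genotype, while the samples analysed here, MEF_KO3 and MEF_WT3, are 1 array each. The comparison asks which transcripts differ between the genotypes. With 1 array per genotype there is no replicate check on any value below, no test was possible, and a difference between genotypes and one between any pair of cultures cannot be told apart.

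Actin filaments form the stress fibres of a fibroblast. Tropomyosins and calponins coat the filaments, non-muscle myosin pulls on them, and focal adhesions anchor them to integrins at the membrane. Unpolymerised actin holds the coactivators of the MRTF family in the cytoplasm; when actin polymerises they enter the nucleus and act with SRF, which binds a sequence called the CArG box in the promoters of actins, transgelin and many other genes of the same machinery. Fibroblasts that turn into myofibroblasts, for example under TGF-beta, make smooth muscle alpha-actin (Acta2) and transgelin (Tagln), and mature smooth muscle adds its own myosin heavy chain (Myh11), calponin (Cnn1) and leiomodin (Lmod1).

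CArG boxes near the start of the members are shown first, because they are the sequence by which SRF reaches these genes. The RefSeq promoter table of build GRCm38.p6 held 30 of the 36 members; Actb, Actg2, Tagln, Myh11, Pxn and Csrp2 had no entry that was used. Each window ran from 250 bases before to 50 bases after an annotated start, and the CArG box was searched as CC, then 6 bases that are each A or T, then GG, a pattern that reads the same on both strands. It was found in 7 of the 30 members (23.3%), against 488 of all 27025 genes in the table (1.81%), or 1.63% of all 32851 windows. Genes were listed here partly because they are known SRF targets, so this difference describes how the list was made. The matches are printed 5′ to 3′ on the gene's strand, in lower case with the CArG box in capitals and with up to 25 bases on either side, ending before the start site:
Srf: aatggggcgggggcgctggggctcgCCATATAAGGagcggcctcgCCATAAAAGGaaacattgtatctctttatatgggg
Myl9: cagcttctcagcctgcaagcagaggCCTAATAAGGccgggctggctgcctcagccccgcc
Fhl2 (downstream start): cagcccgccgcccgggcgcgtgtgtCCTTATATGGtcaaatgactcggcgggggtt
Fhl2 (upstream start): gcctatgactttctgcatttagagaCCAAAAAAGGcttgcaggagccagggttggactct
Acta1: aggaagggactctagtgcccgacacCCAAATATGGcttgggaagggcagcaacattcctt
Actg1: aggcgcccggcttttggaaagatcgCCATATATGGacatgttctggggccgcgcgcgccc
Cnn2: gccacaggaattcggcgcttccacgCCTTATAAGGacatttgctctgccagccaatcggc
Vcl: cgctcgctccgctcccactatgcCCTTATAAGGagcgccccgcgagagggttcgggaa

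The Srf window, at chr17:46556190-46556269 on the minus strand, held 2 CArG boxes that begin 82 and 62 bases before the start. The Myl9 box began 161 bases before its start (window chr2:156775278-156775337, plus strand). The Fhl2 boxes lay before different annotated starts of the gene, 31 bases before the downstream one (chr1:43163962-43164017, minus strand) and 96 bases before the upstream one (chr1:43196823-43196882, minus strand). Those of Acta1 (chr8:123894814-123894873, minus strand), Actg1 (chr11:120348551-120348610, minus strand), Cnn2 (chr10:79988519-79988578, plus strand) and Vcl (chr14:20929148-20929205, plus strand) began 73, 90, 56 and 227 bases before the start. Vcl and Cnn2 carried the same 10 letters. The 7 genes differed in direction on the arrays. Of them Fhl2 was at least 2-fold higher in Fut8-/-, Myl9 at least 2-fold lower, and 5 lay between (median log2 ratio 0.47), where 6.08% of all measured genes were higher and 8.46% lower, while the 21 measured members with a window but no match gave 1 higher (Mylk), 1 lower (Des) and 19 between (median -0.10). The difference between these groups was not tested. Members without a promoter entry are in neither group, among them Tagln, named above as a gene with a CArG box. Of these, Tagln (-2.74) and Pxn (-0.54) had ratios below 0, and Csrp2 (0.75) and Actb (0.17) above 0. Actg2 and Myh11 were not measured. The group medians could therefore differ if those windows were known. Absence of a match says only that these letters are not in the window.

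Signals below are the deposited values of each gene's brightest probe set. Ratios are Fut8-/- over Fut8+/+ on the log2 scale, after the Fut8-/- signals were multiplied by 1.16 to bring the median ratio of well-detected probe sets to 0, so a gene with equal deposited signals has a ratio of 0.22. Without this centring that median is -0.22, and ratios above the floor are lower by that amount. Signals under a floor of 12.3 were raised to it, and a fold that rests on this floor is a lower limit, marked by the words at least. A gene counted as measured where its brighter signal reached 39.1. Levels of different probe sets are not comparable with each other. Fut8 itself was 14.1-fold lower in Fut8-/- (signals of 11.7 in Fut8-/- and 190.9 in Fut8+/+), the Fut8-/- signal lying just above the floor only once scaled, at 13.6; the labels do not say whether its probe set reads the disrupted stretch. The cultures also differed in Xist (15.2 in Fut8-/- and 656 in Fut8+/+) and the Y-linked Eif2s3y (2845 in Fut8-/- and 7.06 in Fut8+/+), so sex and genotype cannot be told apart.

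Most of the contractile and adhesion genes had similar levels in the 2 cultures, and 5 did not. Of the 36 members 32 were measured. Among these, Mylk and Fhl2 were at least 2-fold higher in Fut8-/- (2 of 32, 6.25%), against 6.08% of all 10164 measured genes. Tagln, Myl9 and Des were at least 2-fold lower (3 of 32, 9.38%), against 8.46% of all measured genes. Both shares lay near those of all genes, so the counts show no shift of the list as a whole. The median log2 ratio of the 32 was -0.01, beside 0.00 over all measured genes; 15 ratios lay above 0 and 17 below, and 10 and 22 without centring. The plot of signals by class shows where the 5 genes stand among the rest.

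**Figure D1:**
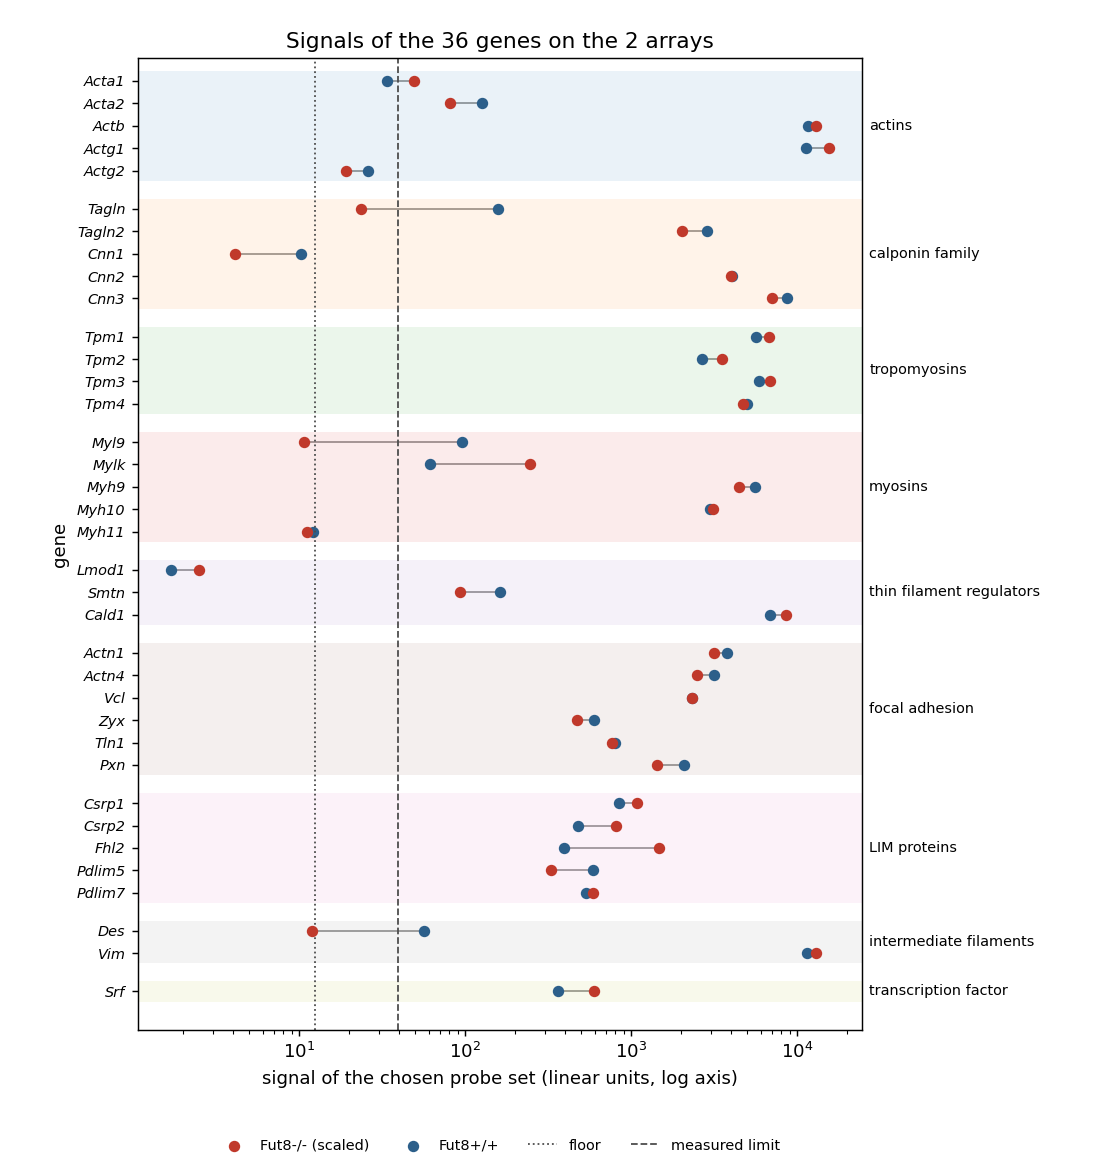
Signal of each gene's brightest probe set (linear units on a log axis) on the Fut8-/- array (red, multiplied by 1.16) and the Fut8+/+ array (blue), by class; the dotted line is the floor and the dashed line the limit for a measured gene. The red and blue points lie close together for most genes and far apart for Tagln, Myl9, Mylk, Fhl2 and Des.

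Among the actins, the cytoplasmic forms of every cell and the smooth muscle alpha-actin were within 2-fold at each gene's brightest probe set. The former had ratios above 0 and the latter a ratio below 0. Actb, cytoplasmic beta-actin, had signals of 11143 in Fut8-/- and 11537 in Fut8+/+ (log2 ratio 0.17). Actg1, cytoplasmic gamma-actin, had 13313 in Fut8-/- and 11197 in Fut8+/+ (0.47). Acta2, smooth muscle alpha-actin and the usual marker of myofibroblasts, had 69.8 in Fut8-/- and 125 in Fut8+/+, a ratio of -0.63 or 1.54-fold lower, short of the 2-fold limit. Acta1, skeletal alpha-actin, was dim, with 42.1 in Fut8-/- and 33.6 in Fut8+/+ (0.54). Actg2, smooth muscle gamma-actin, was below the measured limit on both arrays, with 16.4 in Fut8-/- and 26.1 in Fut8+/+. None of the 4 measured actins passed 2-fold (median 0.32), where 14.5% of all measured genes did in either direction. With so few genes this is not set apart from that share. The ratio of Actb was -0.05 without centring and -0.01 after quantile normalization, so beta-actin has no settled direction. Over the other settings the Actg1 ratio ran from 0.25 to 0.47 and that of Acta2 from -0.85 to 0.

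Actin coding sequences are very alike, and the probe sets of Acta2 and Actg1 carry the suffix _s_at, which the maker gives to sets that can read more than 1 gene. The other Acta2 probe sets, with signals of 9.46 and 0.870 in Fut8-/- and 0.998 and 1.96 in Fut8+/+, were below the floor on both arrays. The Acta2 and Actg1 values therefore rest on 1 probe set each that may include signal from other actins. For Actb a further probe set gave 3583 in Fut8-/- and 1246 in Fut8+/+, 3.35-fold higher (log2 ratio 1.74), while the 3 array controls for the 3-prime end, middle and 5-prime end of the transcript had ratios of 0.17, 0.06 and 0.12. Those controls put the ratio of 3-prime to 5-prime signal at 1.25 in Fut8-/- and 1.20 in Fut8+/+. Of the 5 probe sets for beta-actin, 4 thus had ratios between 0.06 and 0.17.

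The calponin family, small actin-binding proteins that share a calponin-homology domain, held the largest difference toward lower signal among the 36 genes for which neither array was at the floor. Tagln, transgelin or SM22-alpha, had a signal of 20.2 in Fut8-/- and 157.6 in Fut8+/+, 6.70-fold lower (log2 ratio -2.74) on its only probe set. The Fut8-/- signal was below the measured limit and above the floor, and raising the floor to the 60th percentile made the ratio -2.01. Its relative Tagln2, which is made by many cell types, had 1731 in Fut8-/- and 2854 in Fut8+/+ (-0.50). That probe set is of the _x_at kind, whose probes may cross-hybridise. Another Tagln2 set, not of that kind, had 1852.5 in Fut8-/- and 2130 in Fut8+/+ (0.02). Cnn3, acidic calponin, had 6073 in Fut8-/- and 8629 in Fut8+/+ (-0.29). All 6 Cnn3 probe sets were below 0, between -0.83 and -0.29, and 5 of them are also of the _x_at kind. Cnn2 was level at 3418 in Fut8-/- and 4032 in Fut8+/+ (-0.02). Cnn1, the calponin of differentiated smooth muscle, was below the floor on both arrays (3.51 in Fut8-/- and 10.3 in Fut8+/+) and has no ratio. Thus 1 of the 4 measured members passed 2-fold, where 14.5% of all measured genes did in either direction. The class median was -0.40, and -0.22 without _x_at and _s_at sets.

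Tropomyosins, the coiled-coil proteins that lie along actin filaments, were within 2-fold at each gene's brightest probe set. Tpm1 had signals of 5811 in Fut8-/- and 5628 in Fut8+/+ (log2 ratio 0.26), and Tpm2 had 2999 in Fut8-/- and 2645 in Fut8+/+ (0.40). Tpm3 had 5884 in Fut8-/- and 5892 in Fut8+/+ (0.22), and Tpm4 had 4022 in Fut8-/- and 5000 in Fut8+/+ (-0.10). The class median of 0.24 was 0.02 without centring and -0.07 when the median over all probe sets of a gene was used, so no direction holds. The last setting shows how far probe sets of 1 tropomyosin gene can part. Tropomyosin genes are heavily spliced, and single probe sets of Tpm1 (120.6 in Fut8-/- and 385 in Fut8+/+, 2.75-fold lower) and of Tpm3 (24.3 in Fut8-/- and 64.9 in Fut8+/+, 2.29-fold lower) passed 2-fold while the brightest sets of both genes lay above 0. An _x_at probe set of Tpm2 had a ratio of -0.94, against 0.30 to 0.62 for its other 3. The annotation used here does not say which transcripts these probe sets read.

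The myosin class held a pair of opposite differences, in the regulatory light chain and in the kinase that phosphorylates it. Myl9, the regulatory light chain of smooth muscle and non-muscle myosin, had a signal of 9.21 in Fut8-/-, under the floor, and 96.0 in Fut8+/+, at least 7.77-fold lower on its only probe set. That bound depends on the floor, and raising it to the 60th percentile made the log2 ratio -1.29. Mylk, myosin light chain kinase, had 211.7 in Fut8-/- and 60.9 in Fut8+/+, 4.04-fold higher (log2 ratio 2.02). A further Mylk probe set gave 76.8 in Fut8-/- and 9.78, under the floor, in Fut8+/+, at least 7.24-fold higher; the remaining set was below the floor on both arrays (1.61 in Fut8-/- and 9.78 in Fut8+/+). The Mylk gene has several promoters, which make a long non-muscle kinase, a short smooth muscle kinase and telokin, and the annotation does not say which of these the probe sets read. Of other regulatory light chain genes, Myl12a, a non-muscle form, was level, with 7539 in Fut8-/- and 8065 in Fut8+/+ (0.12). It had 1 probe set ratio above 0 and 1 below. Myl12b was on the same side as Myl9 but within 2-fold, with 1737 in Fut8-/- and 3517 in Fut8+/+, 1.74-fold lower (-0.80). These light chain genes were chosen for mention after their values were seen.

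The heavy chains of non-muscle myosin were within 2-fold. Myh9, non-muscle myosin heavy chain IIA, had 3845 in Fut8-/- and 5519 in Fut8+/+ (log2 ratio -0.30), and its other probe sets ranged from -0.85 to 0.41, the positive value coming from a set with signals of only 19.4 in Fut8-/- and 17.0 in Fut8+/+. Myh10, heavy chain IIB, had 2676 in Fut8-/- and 2987 in Fut8+/+ (0.06). Myh11, the heavy chain that defines smooth muscle, was below the floor at both probe sets, with 9.49 and 1.30 in Fut8-/- and 12.1 and 0.830 in Fut8+/+. The class median of the 4 measured myosin genes was -0.12, a number that hides ratios from -2.96, itself a bound, to 2.02.

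**Figure D2:**
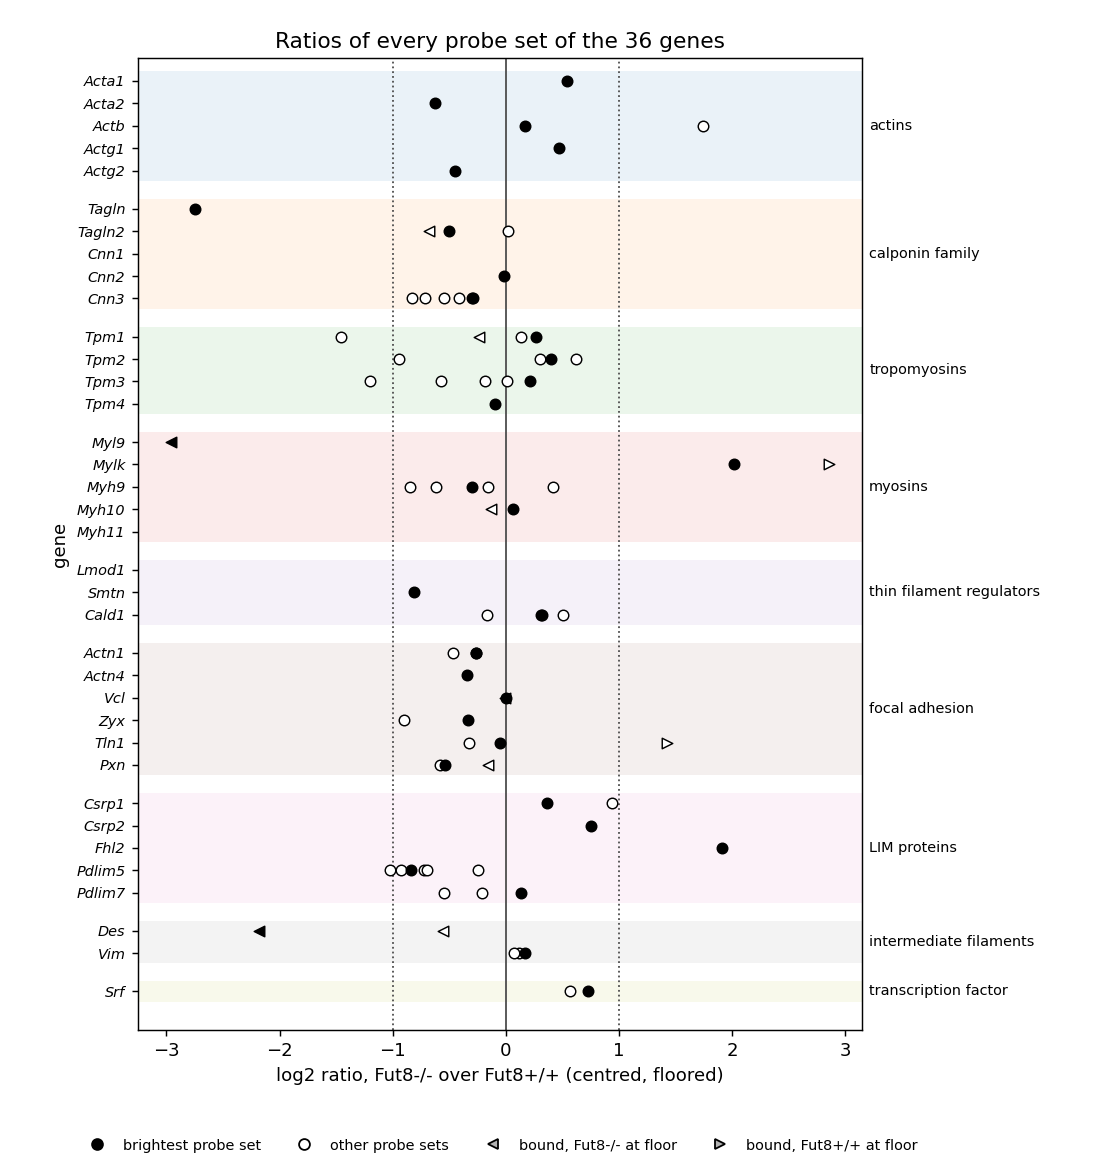
Log2 ratio of Fut8-/- over Fut8+/+ for each probe set of each gene; filled points are the brightest set, open points the others, triangles are bounds where 1 array was at the floor, and dotted lines mark 2-fold. Mylk and Pdlim5 have all their ratios on 1 side of 0, whereas those of Tpm1, Tpm2, Tpm3 and Myh9 lie on both sides.

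Of the thin filament regulators, Cald1, caldesmon, was near equal with 7299 in Fut8-/- and 6845 in Fut8+/+ (log2 ratio 0.31, and -0.17 to 0.51 at its other sets above the floor). Smtn, smoothelin, had 79.7 in Fut8-/- and 162.4 in Fut8+/+, 1.75-fold lower (-0.81) and past 2-fold only without centring (-1.03). Lmod1, leiomodin, which nucleates actin filaments in smooth muscle, was below the floor on both arrays (2.13 in Fut8-/- and 1.69 in Fut8+/+).

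The focal adhesion genes lay within 2-fold at their brightest probe sets. All 6 were measured and none passed 2-fold, where 14.5% of all measured genes did in either direction. In a class of this size a count of 0 is not set apart from that share. The ratios ran from -0.54 to just under 0, with a class median of -0.30. Pxn, the scaffold protein paxillin, had a signal of 1221 in Fut8-/- and 2068 in Fut8+/+ (log2 ratio -0.54, and -0.58 at its other set above the floor). Zyx, the LIM protein zyxin, had 404.8 in Fut8-/- and 594 in Fut8+/+ (-0.34, and -0.90 at a dim _x_at set). Actn4, alpha-actinin of non-muscle cells, had 2131 in Fut8-/- and 3151 in Fut8+/+ (-0.35). Actn1, a second non-muscle alpha-actinin, had 2698 in Fut8-/- and 3770 in Fut8+/+ (-0.26). Vinculin (Vcl), with 1979 in Fut8-/- and 2305 in Fut8+/+, and talin (Tln1), with 661 in Fut8-/- and 798 in Fut8+/+, link integrins to actin and had ratios of 0.00 and -0.05. Of the other Tln1 sets, 1 had a ratio of -0.33. Another, under the measured limit, gave 28.5 in Fut8-/- and 11.7, under the floor, in Fut8+/+, at least 2.69-fold higher. The ratios of all 6 genes were below 0 under each scaling but one: with the ratios centred separately on each chromosome, Actn1 (0.07) and Tln1 (0.14) were above 0. Actn1 lies on chromosome 12, whose 361 measured genes had a median ratio of -0.38, and Actn4 on chromosome 7, with a median of -0.32 over 714 genes.

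LIM domain proteins of the actin cytoskeleton differed from one another. Fhl2, a LIM domain protein that binds integrins and SRF and is itself an SRF target, had a signal of 1259 in Fut8-/- and 391 in Fut8+/+, 3.75-fold higher (log2 ratio 1.91) on its only probe set. The cysteine-rich proteins Csrp2, with 694 in Fut8-/- and 479 in Fut8+/+ (0.75), and Csrp1, with 932 in Fut8-/- and 841 in Fut8+/+ (0.37, and 0.93 at its other probe set), were on the same side within 2-fold. Pdlim5, a PDZ and LIM protein of the Z-disc and stress fibres, was on the lower side, with 283 in Fut8-/- and 590 in Fut8+/+, 1.79-fold lower (-0.84). The 6 Pdlim5 probe sets above the floor all had ratios below 0, from -1.02 to -0.25, and the gene passed 2-fold without centring (-1.06) and with chromosomes centred one by one (-1.04). Pdlim7 was level, with 503.7 in Fut8-/- and 534 in Fut8+/+ (0.14), its other sets lying at -0.55 and -0.21. It lies on chromosome 13, whose 377 measured genes had a median of 0.56, and its ratio was -0.34 with each chromosome centred.

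The intermediate filament genes differed from each other. Des, desmin, the filament of muscle cells, had 10.2 in Fut8-/-, under the floor, and 55.9 in Fut8+/+, at least 4.53-fold lower; its other probe set gave 7.92 in Fut8-/- and 18.2 in Fut8+/+, at least 1.47-fold lower. Vim, vimentin, the filament of mesenchymal cells, was level at 3 probe sets (0.08 to 0.17), the brightest with 11111 in Fut8-/- and 11471 in Fut8+/+. Without centring the Vim ratio was -0.05.

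Srf itself was 1.66-fold higher in Fut8-/-, within the 2-fold limit. The brighter probe set read 514 in Fut8-/- and 360 in Fut8+/+ (log2 ratio 0.73), and the second probe set gave 111.6 in Fut8-/- and 87.6 in Fut8+/+ (0.57). Over the 10 other settings the Srf ratio ranged from 0.51 to 0.74. Its coactivators lay nearer to 0. Mrtfa had 168.7 in Fut8-/- and 267 in Fut8+/+ (-0.45), Mrtfb had 537 in Fut8-/- and 557 in Fut8+/+ (0.17), and of the ternary complex factors, which join SRF after growth factor signals, Elk3 had a ratio of -0.39 and Elk4 of 0.02. Myocd, the myocardin of smooth and cardiac muscle, was below the floor on both arrays.

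**Figure D3:**
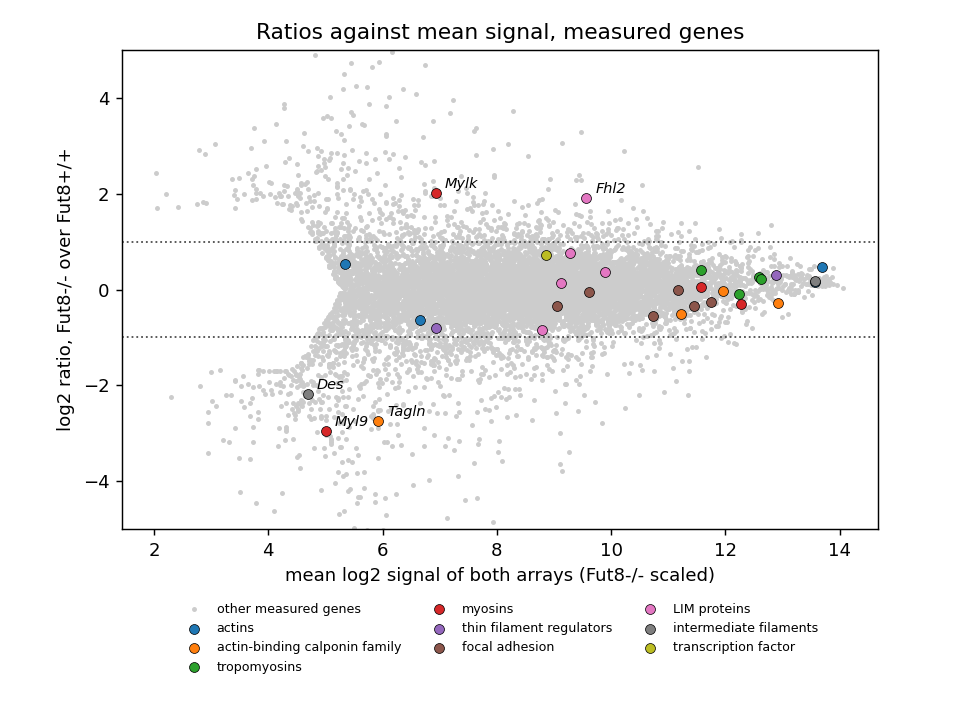
Log2 ratio of Fut8-/- over Fut8+/+ against the mean log2 signal of both arrays for 10164 measured genes (grey) and the 32 measured members (coloured by class); 27 other genes lie beyond the plotted range, and dotted lines mark 2-fold. The 3 lower genes Tagln, Myl9 and Des have low mean signals, where the grey points also spread widely, while Fhl2 stands outside the 2-fold lines at a higher signal.

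Members on and off the list of mature smooth muscle markers were counted separately. Of the 9 members on it, 5 were measured, with 2 at least 2-fold lower (Tagln and Des), 1 higher (Mylk) and 2 between (median log2 ratio -0.81). Of the other 27 members all were measured, 1 was lower (Myl9), 1 higher (Fhl2) and 25 lay between (median 0.06). The shares were 40% lower and 20% higher on the list, from only 5 measured genes, and 3.7% each off it. Tagln and Des, the lower genes on the list, reached the measured limit only on the Fut8+/+ array, where they are higher. The same holds for Myl9, the lower gene off the list. These genes were thus counted as measured through the array on which they are high. With so few genes, the 40% is not set apart from the other shares. Among all measured genes 8.46% were lower and 6.08% higher. The list leaves out Myl9, although its light chain also serves smooth muscle. It was chosen with earlier results of these data known, and the difference between these groups was not tested. Dimness went with these calls: of 2755 measured genes whose brighter signal, after scaling, was under 155, the 75th percentile, 15% were at least 2-fold lower and 10.4% higher, against 6.05% and 4.48% of the 7409 above it. Myl9, Des, Acta1 and Acta2 lay in the dimmer group, with Tagln just above the limit; the part of dimness in their ratios was not tested. The defining smooth muscle genes Myh11, Cnn1, Lmod1 and Myocd, together with Sncg, were below the floor on both arrays. The summed deposited signal of the 12 markers of mature smooth muscle on the array was 449 in Fut8-/- (522 after scaling) and 635 in Fut8+/+. Without Mylk it was 237 in Fut8-/- (276 after scaling) and 574 in Fut8+/+. Such a sum is led by its brighter probe sets. In whole cultures, fewer cells of a contractile type and less RNA per cell cannot be told apart.

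Markers of other cells were read from lists that were chosen with earlier results of these data known. Their part in the values above was not tested. Of 19 skeletal muscle markers 2 were measured, Ckm and Acta1, with Myod1 and Ttn under the measured limit on both arrays. Ckm was 2.27-fold higher (44.6 in Fut8-/- and 22.8 in Fut8+/+), with 1 probe set ratio above 0 and 1 below. The summed deposited signal of the 19 markers was 161.5 in Fut8-/- (188 after scaling) and 157.4 in Fut8+/+. Of 12 cardiac markers the measured ones were Nkx2-5, 7.38-fold lower (19.2 in Fut8-/- and 164.5 in Fut8+/+), and Tnnt2, cardiac troponin T, 2.27-fold higher (406 in Fut8-/- and 209 in Fut8+/+). Their list had summed deposited signals of 519 in Fut8-/- (604 after scaling) and 500.3 in Fut8+/+. Of 10 pericyte and endothelial markers the pericyte genes Notch3 (12.4 in Fut8-/- and 66.3 in Fut8+/+, 4.61-fold lower) and Cspg4 (49.5 in Fut8-/- and 206 in Fut8+/+, 3.57-fold lower) were measured, and Rgs5 and Pecam1 were below the floor on both arrays. The summed deposited signal of that list was 121.6 in Fut8-/- (141 after scaling) and 357 in Fut8+/+. Fibroblast identity rested on 11 measured of 15 markers, among them Col1a2 (ratio -0.04), Sparc (-0.10) and Vim. Of these 11 markers 5 (45.5%) were at least 2-fold lower, against 8.46% of all measured genes, including Prrx1 (at least 17.9-fold), Fn1 (3.25-fold), Col5a1 (2.98-fold) and Col1a1 (2.59-fold), and 1, Pdgfrb, was higher (626 in Fut8-/- and 342 in Fut8+/+). Thy1, Fap, Lum and Dcn were under the measured limit on both arrays. Several markers reached that limit only on the array where they are higher. These were Ckm and Acta1 on the Fut8-/- array, and Nkx2-5, Notch3, Prrx1 and Pdgfra on the Fut8+/+ array. Pdgfra, a further lower fibroblast marker, had 23.6 in Fut8-/- and 61.9 in Fut8+/+.

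Other genes of the actin and SRF pathway were listed by function, and gave a mixed picture. Of 36 measured genes of the actin cytoskeleton and known MRTF targets outside the members, 7 (19.4%) were at least 2-fold lower, 1 (2.78%) was at least 2-fold higher and 28 lay between, beside 8.46% lower and 6.08% higher among all measured genes. The median of this list was 0.11, smaller in size than the log2 shift of -0.22 that the centring removed. Its sign therefore depends on the centring. The lower genes were led by the small heat shock protein gene Hspb1 (35.8 in Fut8-/- and 341.8 in Fut8+/+, 8.22-fold). The SRF and YAP target Ccn2 followed (213 in Fut8-/- and 1080 in Fut8+/+, 4.36-fold), as did Svil, the membrane-linked actin binder supervillin (117.6 in Fut8-/- and 572 in Fut8+/+, 4.18-fold). The higher gene was Enah, an actin polymerase of the Ena/VASP family, with 1908 in Fut8-/- and 608 in Fut8+/+ (3.65-fold, 6 probe sets of the same sign). Ccn1, another target shared with YAP, was level (0.10).

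**Figure D4:**
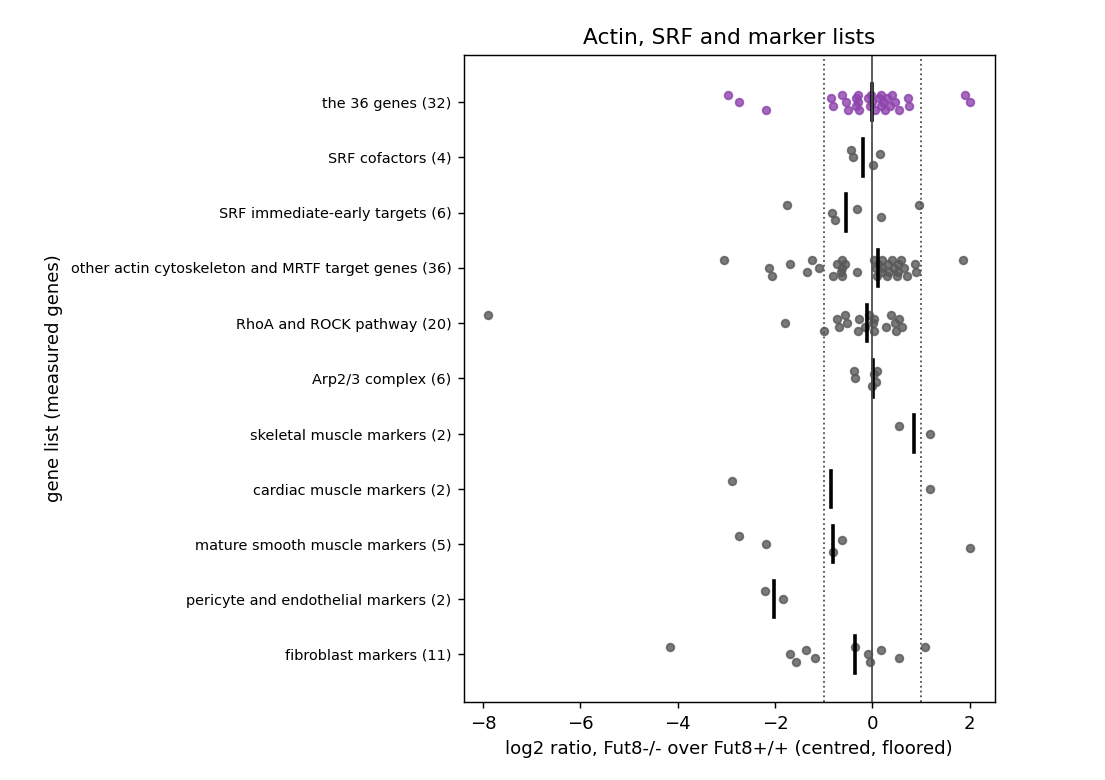
Log2 ratio of Fut8-/- over Fut8+/+ of the measured genes (points, number in brackets) of the 36 genes and of 10 further lists, with a black bar at each median and dotted lines at 2-fold. The medians of the 36 genes and of the Arp2/3 complex lie near 0, and the lists together have points beyond the lines on both sides.

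The SRF targets listed for the early response to serum gave 1 lower and 0 higher of 6 measured, beside 8.46% lower and 6.08% higher among all genes. Egr1 had 600.2 in Fut8-/- and 2345 in Fut8+/+, 3.36-fold lower, whereas Fos had 225.8 in Fut8-/- and 136.1 in Fut8+/+ (log2 ratio 0.95). Ier2 (-0.84) and Fosl1 (-0.77) lay within 2-fold, and the list median was -0.54. In the RhoA and ROCK pathway, which drives actin polymerisation and myosin phosphorylation, 2 of 20 measured genes (10%) were at least 2-fold lower, near the 8.46% of all genes, 0 were higher and 18 lay between (median -0.12). Rhob, 1 of the lower genes, had 156 in Fut8-/- and 632 in Fut8+/+, 3.48-fold lower. Diaph2 lay just short of the limit, with 194 in Fut8-/- and 451 in Fut8+/+. Rock1 had a ratio of -0.73, with 4 probe set ratios below 0 and 1 above. All 6 measured subunits of the Arp2/3 complex, which branches actin filaments, were within 2-fold, where 14.5% of all measured genes were not. With so few genes this is not set apart from that share. Their ratios ran from -0.37 (Arpc1a) and -0.36 (Arpc5l) to 0.10 (Arpc2) and 0.08 (Arpc4), with a median of 0.02.

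Probe sets of 1 gene give several readings within these arrays, although they need not read the same transcripts. Of the 89 member probe sets, 70 were above the floor on both arrays, 10 were at the floor on 1 array and 9 on both. Where a member had several sets above the floor (17 genes), their ratios had a pooled within-gene SD of 0.46, beside 0.40 over 5389 genes of the whole array. This SD leaves out variation between cultures. Of 21 members with more than 1 ratio, 12 had all probe sets on the same side of 0 and 9 did not. Probe sets of the _x_at kind had a median ratio of -0.56 among 12 member sets, 5 of them from Cnn3, whereas over all 1358 such sets on the arrays the median was 0.00. Of the 5 members that passed 2-fold, Tagln, Myl9 and Fhl2 were read by a single probe set.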

How the data were processed

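RNA of 1 Fut8-/- and 1 Fut8+/+ culture was biotin-labelled and hybridised to 1 array each, per the labels' protocols. The values are the authors' deposited signal intensities, linear, 1 per probe set; the submitters' processing notes name GCOS, the Affymetrix GeneChip software. The labels state no version, algorithm, scaling target or detection calls, so scale and centring stay unknown beyond linearity. Median signals were 16.9 in Fut8-/- and 20.5 in Fut8+/+.

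Gene names came from GEO's platform annotation; all 92 member probe sets matched a gene identifier of assembly GRCm38.p6, which changed 0 symbols. Log2 ratios were centred on the median of probe sets exceeding each array's own 40th percentile, floored at the 40th percentile (12.3), and counted as measured from the 60th (39.1). The probe set with the highest mean log2 signal, array controls excepted, stood for a gene. Counts use a fixed 2-fold limit; with 1 array per group no p-value is given, and the number of arrays limits the precision.

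Named were all members, Fut8 and up to 4 measured genes with the largest absolute ratio of each further list; any other gene was picked with its value in view. A result that this rule would name is not reported here. The members and lists were chosen with earlier results of these data known. The steps were run on simulated data with planted differences larger than the 2-fold limit. The simulated noise had the spread between probe sets of a gene, so that run says nothing about variation between cultures. Alternatives were no centring, quantile normalization, loess (span 0.4), floors at the 20th and 60th percentiles, no filter, a filter at the 75th percentile, the median over probe sets, leaving out _x_at and _s_at sets and, added after seeing the data, centring each chromosome. Python 3.11.15, pandas 2.3.3, numpy 2.4.6 and statsmodels 0.14.6 were used.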

Additional observations from a re-analysis of the deposited data

How the results depend on the processing

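The calls of Mylk and Fhl2 as higher and of Tagln as lower held under 9 other settings and 1 more added after seeing the data. Myl9 and Des stayed lower except that both fell below the stricter filter at the 75th percentile, which left 1 lower member, and that Des, with a floor at the 60th percentile, had a ratio of -0.52; that floor made the Myl9 ratio -1.29. Without centring 5 members were lower, Pdlim5 and Smtn in addition, and over all genes 1205 were lower (11.8%) and 416 higher (4.08%). Over all genes the stricter filter, which tests fewer genes, gave 332 higher and 448 lower, against 618 and 860. The median of the intermediate filament genes, which otherwise lay between -1.17 and -0.62, was 0.17 with that filter, which leaves only Vim, and -0.17 with the floor at the 60th percentile. Some class medians near 0 changed sign: that of the tropomyosins was 0.24 and became -0.07 with the median over probe sets, and that of the myosins was -0.12 and became 0.06 with the stricter filter. The median of all members lay between -0.23 and 0.03. With no filter, genes at the floor on both arrays enter with a ratio of 0. Signal over background limits Cnn1, Myh11 and Lmod1, which have no ratio, and Myl9 and Des, which have bounds. No paired analysis was possible because each genotype has 1 array.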
